A study of Mus musculus with 2 samples.

Results

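Mir103-1, Mir103-2 and Mir107 are the 3 mouse genes that encode the microRNAs miR-103 and miR-107. They were chosen by name, and each has a row among the 1973 microRNA genes of the count tables. The tables come from microRNA sequencing of RNA under 30 nucleotides (nt) from kidneys of healthy B6NCrl mouse embryos at embryonic day 16.5, with kidneys of both sexes pooled. The 2 libraries are labelled biological replicates 1 and 2 of this 1 group, so no conditions can be compared. Replicate 2 pooled 41 embryos, the sources used here give no number for replicate 1, and both carry the same donor record, so the spread between them may be partly technical.

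A microRNA is cut from a hairpin transcript. One of the hairpin's arms is loaded into an Argonaute protein and pairs with messenger RNAs through its seed, bases 2 to 8, which lowers their translation and stability. The miR-103 and miR-107 genes lie in introns of the Pank genes, which encode pantothenate kinases, the enzymes of the first step of coenzyme A synthesis. The 3p arm is the arm known to act. These microRNAs are made in many tissues, and are known for dampening insulin signalling in liver and fat through caveolin-1 and for targeting Dicer, the enzyme that cuts microRNA hairpins.

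The 3p arms are shown first because the counts turn on them. Sequences are from RefSeq on GRCm38.p6, where all 3 genes have an entry. They run 5′ to 3′ with the seed in capitals.
miR-103-3p, from Mir103-1 and Mir103-2: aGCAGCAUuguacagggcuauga
miR-107-3p, from Mir107: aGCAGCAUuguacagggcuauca
Both arms are 23 nt long, and counted from the 5′ end they differ by 1 substitution, G22C, with the base of miR-103-3p named first. Mir103-1 and Mir103-2 encode the same 23 bases. The seed GCAGCAU occurred in these 2 arms alone among the mature microRNAs of the table, so no gene outside the 3 carried it.

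The 5p arms are shown because each gene has its own.
miR-103-1-5p: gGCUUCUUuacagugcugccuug
miR-103-2-5p: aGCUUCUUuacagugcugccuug
miR-107-5p: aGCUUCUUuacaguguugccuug
Between miR-103-1-5p and miR-103-2-5p the substitution was G1A, and between miR-103-2-5p and miR-107-5p it was C16U. The seed GCUUCUU was likewise shared by these 3 arms and by no other. Each of the 3 5p arms is 23 nt long, as the 3p arms are, so levels of the genes were compared without a correction for length.

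The hairpins are printed to show how far the likeness extends, with both annotated arms in capitals.
Mir103-1: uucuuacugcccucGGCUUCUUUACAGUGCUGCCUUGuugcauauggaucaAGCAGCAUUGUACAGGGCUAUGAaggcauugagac
Mir103-2: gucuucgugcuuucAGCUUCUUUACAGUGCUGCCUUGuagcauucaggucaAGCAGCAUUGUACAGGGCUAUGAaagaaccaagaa
Mir107: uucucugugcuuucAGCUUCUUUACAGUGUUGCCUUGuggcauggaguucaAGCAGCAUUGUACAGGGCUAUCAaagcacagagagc
The longest stretch shared by the Mir103-1 and Mir103-2 hairpins was 27 bases, and each shared at most 24 bases with Mir107. No other hairpin of the table shared 18 bases with any of the 3.

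Each gene lies in intron 5 of 6 of its host and on the host's strand. Mir103-1 (ENSMUSG00000065553, chromosome 11 from 35782396 to 35782481, plus strand, mm10) is in Pank3, 688 nt past the upstream exon. Mir103-2 (ENSMUSG00000065563, chromosome 2 from 131288052 to 131288137, plus strand) is in Pank2, 454 nt past that exon. Mir107 (ENSMUSG00000065594, chromosome 19 from 34820687 to 34820773, minus strand) is in Pank1, 326 nt past it. The introns differ in length, at 1740 nt in Pank3, 5801 nt in Pank2 and 7282 nt in Pank1. The map of the hosts shows the shared exon order. None of the 3 hosts has a row in the microRNA tables, so host and microRNA levels were not compared.

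**Figure D1:**
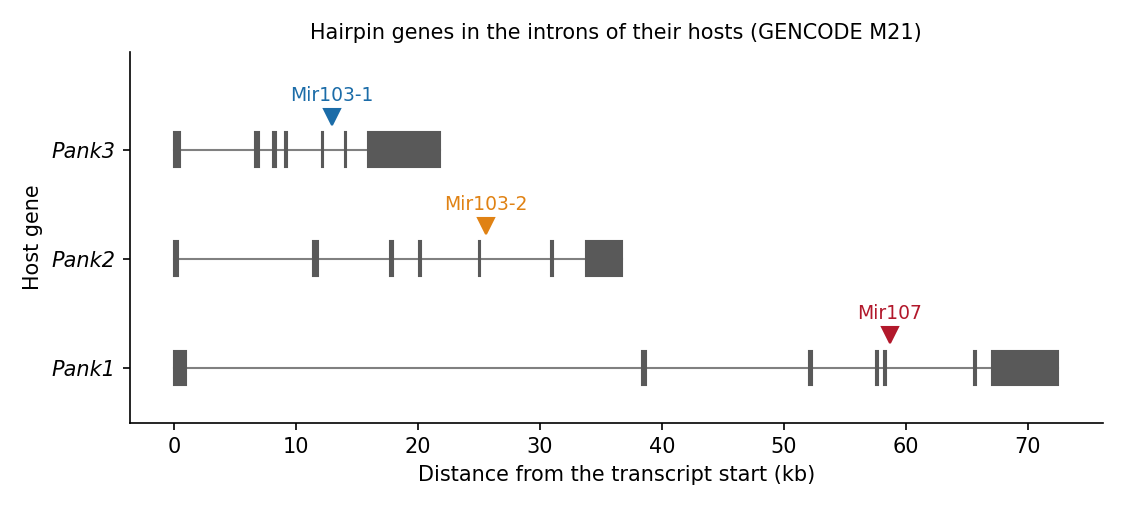
Exons (boxes) and introns (lines) of a coding transcript of each host gene in GENCODE M21, by distance from the transcript start in kb, with a triangle at the microRNA gene. In all 3 hosts the triangle stands in intron 5 of 6.

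What a read can say about its gene depends on its length and arm. A read that begins at the first base of miR-103-3p matched all 3 hairpins up to 21 nt and both Mir103 hairpins from 22 to 24 nt. It matched 1 hairpin only from 25 nt, which is 2 bases past the annotated end. A read of miR-107-3p matched 1 hairpin from 22 nt on, 1 base short of the annotated end. Reads that begin at the first base of a 5p arm matched 1 hairpin at every length from 18 to 30 nt. Past that base miR-103-1-5p and miR-103-2-5p are the same, so a 5p read that starts later can match both Mir103 hairpins. The plot of matching hairpins by read length shows these steps. Over all 1501 arms of the 916 genes with both a sequence and a row, 190 (12.7%) occur in more than 1 hairpin at full length. Here these are miR-103-3p of Mir103-1 and of Mir103-2, 2 of the 6 arms. In GENCODE M21, among 141767 transcripts, the bases of miR-103-3p occurred in the transcripts of Mir103-1 and Mir103-2 alone, and those of each other arm in 1 transcript. The search covered hairpins and transcripts, not the whole genome, and took identical bases only. The 3p arm of Mir107 differs from that of the copies by 1 base, so a rule that allows a mismatch could place reads otherwise. The sources used here do not state that rule.

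**Figure D2:**
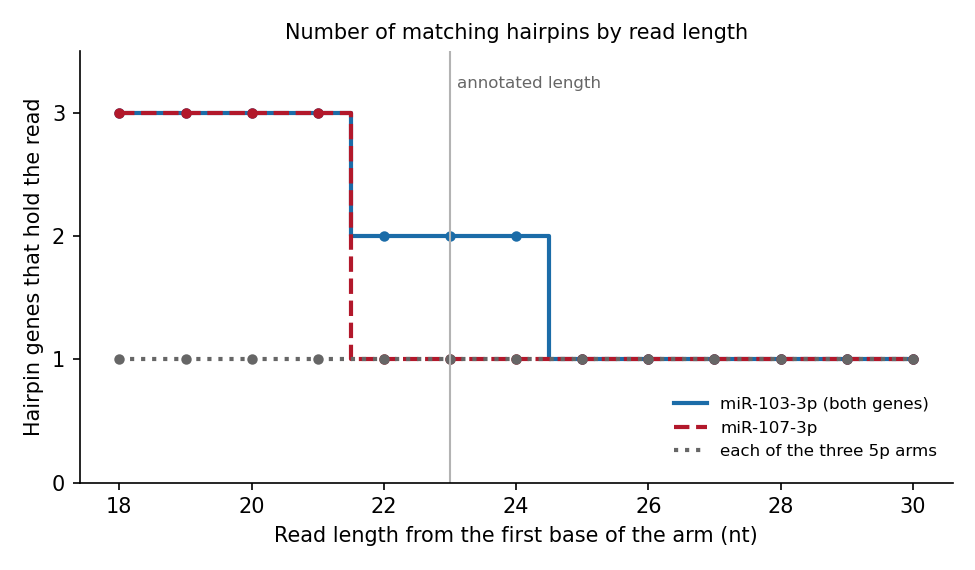
Number of microRNA hairpin genes that hold a read starting at the first base of an arm, by read length in nt. The miR-103-3p line stays at 2 genes at the annotated length of 23 nt, where miR-107-3p and the 5p arms stand at 1.

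Reads that mapped to several places form a row of their own in each table, with 3323410 reads (28.0% of all) in replicate 1 and 3718198 (25.3%) in replicate 2. The 3 columns of each table add up to the same total, 11877442 and 14706415 reads, as they would with each read in 1 row. The sources used here do not state the counting rule, so it is an inference that these reads are in no gene row. How many of them are miR-103-3p was not analysed here. Read that way, the counts of Mir103-1 and Mir103-2 are of reads placed at 1 site and are not the level of miR-103-3p. They are uncertain as gene levels. Reads that begin at the first base of miR-107-3p match all 3 hairpins from 18 to 21 nt. The count of Mir107 would then lack such reads. The tables give 1 value per gene, so arms cannot be told apart in them. Gene-strand reads numbered 5317669 in replicate 1 and 7128703 in replicate 2, and levels below are counts per 1000000 of these (CPM). Intervals are exact Clopper-Pearson 95% intervals and cover counting error only.

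Mir107, the member whose arms occur at full length in no other hairpin, held most of the reads. It had 6481 reads in replicate 1, a level of 1219 CPM (1189 to 1249), and 9493 reads in replicate 2, a level of 1332 CPM (1305 to 1359). The mean level was 1275 ± 79.8 CPM (SD, n = 2), rank 71 of 1973 genes. This was 19.9-fold above the median level of the 387 genes detected in both libraries (1 CPM or more in each), which was 64.2 CPM.

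Mir103-2 was counted far less often. It had 155 reads in replicate 1, at 29.1 CPM (24.7 to 34.1), and 305 in replicate 2, at 42.8 CPM (38.1 to 47.9). Its mean level was 36.0 ± 9.64 CPM (SD, n = 2), rank 220, with 43.2% of the detected genes below it. Mir103-1 was the lowest of the 3, with 13 reads in replicate 1, at 2.44 CPM (1.30 to 4.18), and 36 in replicate 2, at 5.05 CPM (3.54 to 6.99). Its mean level was 3.75 ± 1.84 CPM (SD, n = 2), rank 319, above the 0.564 and 0.421 CPM that a count of 0 allows in replicates 1 and 2. The order Mir107, Mir103-2, Mir103-1 was the same in both libraries, and the values of the 3 genes did not overlap, as the plot of levels by library shows. The SD was 6.26% of the mean for Mir107, 26.8% for Mir103-2 and 49.2% for Mir103-1.

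**Figure D3:**
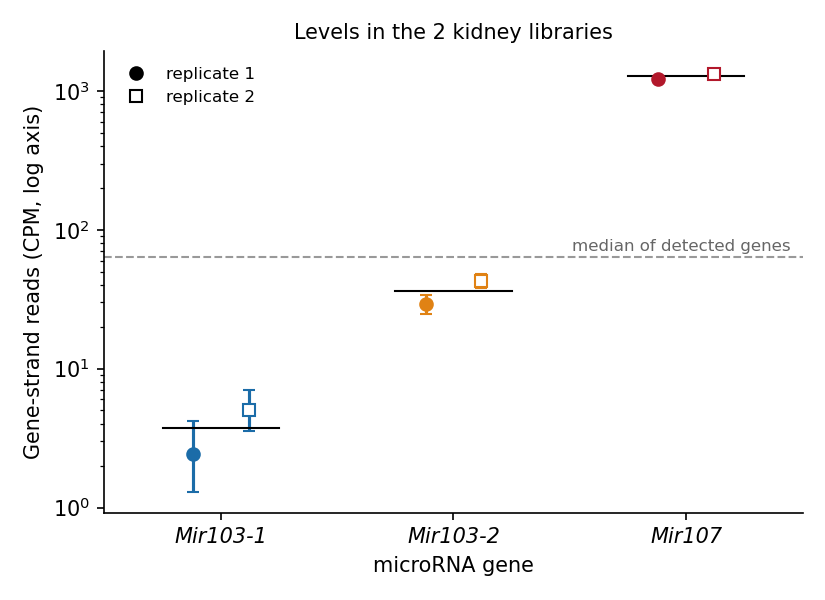
Level of each gene in CPM on a log axis, with replicate 1 as filled circles, replicate 2 as open squares, exact 95% counting intervals as bars and the mean as a black line. Mir107 lies at 1219 and 1332 CPM, while Mir103-2 and Mir103-1 lie below the median of detected genes (dashed, 64.2 CPM).

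Together the 3 genes held 0.131% ± 0.00913 (SD, n = 2) of the gene-strand reads, with 0.125% (0.122 to 0.128) in replicate 1 and 0.138% (0.135 to 0.141) in replicate 2. Of the 6649 reads of the 3 genes in replicate 1, Mir107 held 97.5% (97.1 to 97.8), Mir103-2 2.33% (1.98 to 2.72) and Mir103-1 0.196% (0.104 to 0.334). Of the 9834 in replicate 2, Mir107 held 96.5% (96.2 to 96.9), Mir103-2 3.10% (2.77 to 3.46) and Mir103-1 0.366% (0.257 to 0.506). The intervals of Mir107 do not overlap between the libraries, and its part was smaller in replicate 2. Those of Mir103-2 do not overlap either, with a larger part in replicate 2, while those of Mir103-1 do. These intervals cover counting error only, and in the test between libraries below 33.6% of 455 genes passed.

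The unique member was then compared with the copies. Mir107 stood 38.6-fold (33.1 to 45.2) above the copies' summed reads in replicate 1 and 27.8-fold (24.99 to 31.1) above them in replicate 2, a mean log2 ratio of 5.03 ± 0.33 (SD, n = 2). Against Mir103-2 alone the log2 ratio was 5.17 ± 0.30, and against Mir103-1 it was 8.50 ± 0.65. The counts of the copies differed from each other too, and they are uncertain as gene levels. Reads from the first base of miR-103-3p first differ between the copies at base 25, g in Mir103-1 and a in Mir103-2. A 24 nt read with an a added after it would match Mir103-2 alone, whichever copy it came from. Such reads were not looked for. Mir103-1 had 11.9-fold (6.77 to 22.9) fewer reads than Mir103-2 in replicate 1 and 8.47-fold (5.99 to 12.3) fewer in replicate 2, a log2 ratio of -3.33 ± 0.35 for Mir103-1 over Mir103-2. Each of these 4 ratios was many times its spread between libraries and kept its sign in both. In a two-sided exact sign-flip permutation test each gave p = 0.5, the smallest that 2 libraries allow. The part of the reads that map to several places in these ratios was not tested.

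No read of any of the 3 genes fell on the strand opposite to the gene, in either library. For Mir107 this is 0 against 15974 reads, which allows up to 0.0188%, for Mir103-2 0 against 460, which allows up to 0.652%, and for Mir103-1 0 against 49, which allows up to 6.12%. Of the 387 detected genes, 345 (89.1%) had no opposite-strand read either.

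The libraries were compared by a two-sided exact binomial test of the reads at edgeR TMM-scaled library sizes, adjusted over the 455 genes with at least 10 reads, 33.6% of which passed an adjusted p of 0.05. The test compares these 2 pools by counting error alone. Of the 3 genes, 1 passed, a share near that background. Mir103-2 was higher in replicate 2 by a log2 ratio of 0.41 (0.13 to 0.70), with 155 and 305 reads (exact binomial, adjusted p = 0.0133). Mir103-1 had a log2 ratio of 0.90 (-0.05 to 1.94) from 13 and 36 reads and did not pass (exact binomial, adjusted p = 0.138). Mir107 had a log2 ratio of -0.02 (-0.06 to 0.03) from 6481 and 9493 reads (exact binomial, adjusted p = 0.672).

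Scaling set the reading for Mir107. With library totals in place of TMM every log2 ratio is 0.14 higher, and Mir107 then stood at 0.13 and passed (exact binomial, adjusted p = 1.9e-07). Mir103-2 lost its call when the spread between pools was set to a biological coefficient of variation (BCV) of 0.2 (edgeR exact test, adjusted p = 1). The plot of the ratios between libraries places the 3 genes among all those tested, whose median log2 ratio was 0.02. Of all 455 genes 15.8% passed as higher in replicate 2 and 17.8% as lower under TMM, and 33.4% as higher and 9.01% as lower with library totals. The counts for gene lists below are to be read against these shares.

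**Figure D4:**
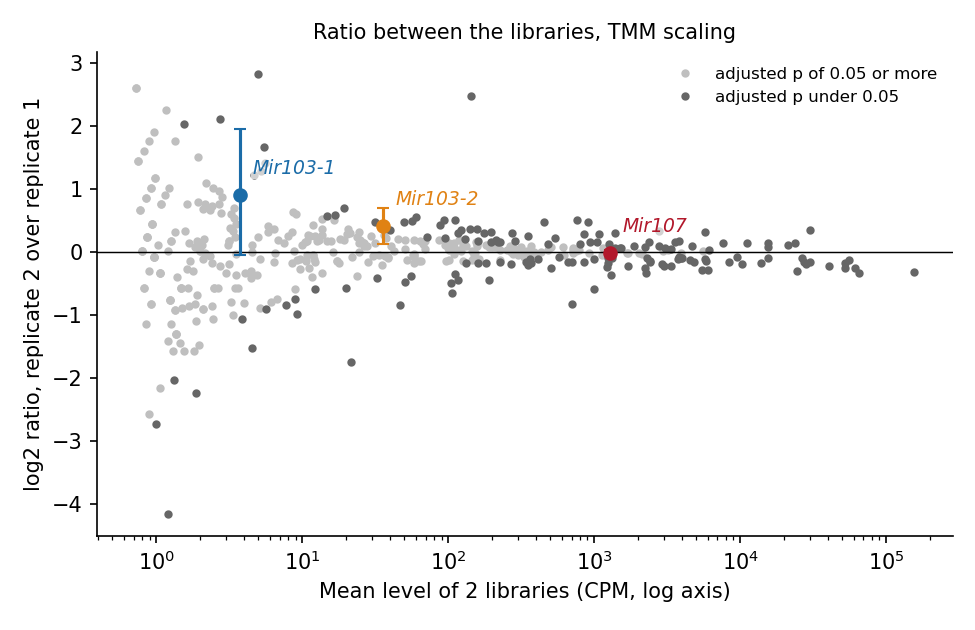
The log2 ratio of replicate 2 over replicate 1 after TMM scaling against the mean level in CPM (log axis), for the tested genes with reads in both libraries, with exact 95% counting intervals for the 3 named genes. Mir107 lies at -0.02, Mir103-2 at 0.41 and Mir103-1 at 0.90, with the widest interval for Mir103-1.

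Levels of marker microRNAs were set beside the tissue label. The lists were chosen with earlier results of these data known, so they do not test the label. All 16 of the fetal kidney list, from Mir10a as the highest to Mir194-1 as the lowest, were detected, against 387 of all 1973 genes. Their summed levels were 320394 and 301719 CPM in replicates 1 and 2. Mir10a, at 164308 and 145054 CPM, and Mir10b, at 63659 and 59165 CPM, held most of these sums. Of the 16, 3 passed as higher and 9 as lower in replicate 2 (6 and 4 with library totals), against 15.8% and 17.8% of all genes (33.4% and 9.01%). Endothelial Mir126a stood at 52632 and 51554 CPM and liver Mir122 at 210.1 and 171.0 CPM. Summed leukocyte markers (4 of 4 measured genes detected, Mir342 highest and Mir150 lowest) stood at 2918 and 3916 CPM. Mir342 held most of this sum, at 2352 and 3252 CPM, and Mir142, also listed, was not among the measured genes. Erythroid markers (3 of 3, Mir451a highest and Mir486 lowest) stood at 313 and 434 CPM. As higher in replicate 2 passed 2 of the 4 leukocyte and 2 of the 3 erythroid genes, against 15.8% of all genes. With library totals 4 leukocyte and 2 erythroid genes did, against 33.4%. Striated muscle markers (5 of 8 detected, Mir206 highest) stood at 302 and 325 CPM, with Mir1a-1, Mir133a-1 and Mir133a-2 at 0 reads. Neuronal markers (4 of 8, Mir137 highest) stood at 193 and 177 CPM, with Mir124a-2 and Mir124a-3 at 0 reads. The limit on copies holds here too: Mir1a, Mir133a and Mir124a genes are known to come in copies with the same mature arm, so their zeros do not show that the microRNA is absent. Mir196a-1 and Mir196a-2 of the kidney list share miR-196a-5p, so their counts are limited in the same way. Other listed genes may share arms as well, and the summed levels may lack such reads. The summed leukocyte and erythroid levels were higher in replicate 2, as the level of Mir103-2 was, and their part in its ratio was not tested. In bulk tissue, fewer cells of a type and less RNA per cell cannot be told apart.

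The fall from unique to duplicated members was set beside other families. In 14 families some genes were listed as duplicated copies and others as unique, and levels per gene could be compared as a ratio in 13. In each of these 13 the RefSeq table holds an arm shared by the copies, in let-7 for 5 of the 6 listed. No let-7a-5p is among the shared arms found, though Mirlet7a-1 and Mirlet7a-2 are both listed, so the table may lack some arms. The Mir133a copies and 2 of the 4 genes listed as unique in miR-30 were not matched to a sequence. The mean level per unique gene over that per duplicated gene was 6.03 ± 0.33 log2 (SD, n = 2) for Mir107 over its copies, rank 4 of 13. The median over the families was 4.05. Unique genes were higher in 12 of the 13, in both libraries, so the direction seen here was the common one. Among the 12, the miR-7 ratio of 0.48 ± 0.56 lies within its spread, at 0.09 in replicate 2. Under the inferred counting rule, a copy's count lacks the shared-arm reads that match more than 1 copy. Counts of copies can then be low whatever the level of the arm, and the size of this effect was not tested. In miR-29, rank 2, the copies had means of 0.188 and 0.701 CPM in replicates 1 and 2. A count of 0 allows 0.564 and 0.421 CPM there, so that ratio is uncertain. The largest ratio was that of the miR-26 family, 10.10 ± 0.22, from Mir26b at 28181 ± 604 CPM against a mean of 25.9 CPM for Mir26a-1 and Mir26a-2. The smallest, -2.03 ± 0.04, was that of the miR-25/92 family, in which the copies Mir92-1 and Mir92-2 had a mean of 1603 CPM and the unique Mir25 and Mir92b a mean of 393 CPM. Each unique gene exceeded each copy in 10 of the 14 families, miR-133 among them. In the 14th, miR-133, both copies had 0 reads, so no ratio is given. Mir199b, listed as unique, has an arm identical to one of another gene, and its family is counted among the 12. These levels are a description with no test.

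**Figure D5:**
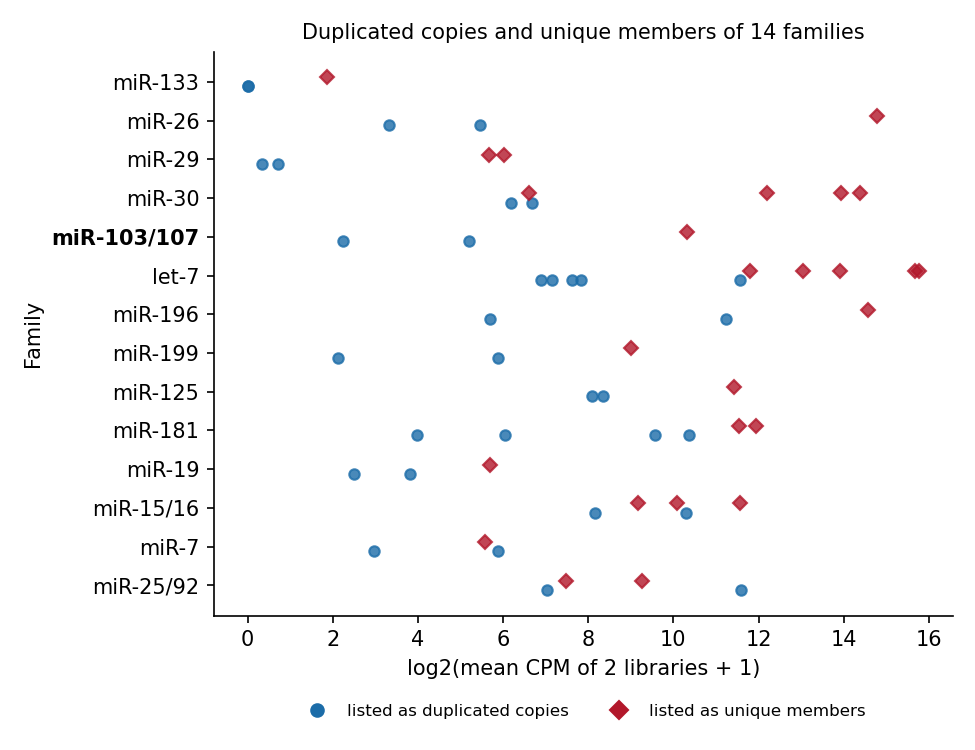
Level of each gene, as log2 of the mean CPM of 2 libraries plus 1, in 14 families, with genes listed as duplicated copies as circles and genes listed as unique as diamonds. Families are ordered by the ratio, with miR-133, which has none, on top, and Mir107 lies well to the right of both of its copies.

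The 3p arms also resemble a larger family in their first bases. The letters AGCAGC begin at base 1 in miR-103-3p and miR-107-3p, and in no other of the 1679 arms of the table, read on the arm's own strand. They begin at base 2 in 11 arms of 12 genes, among them those of the miR-15/16 family, known to restrain the cell cycle. The arms below are shown for that offset, with the letters in capitals.
miR-107-3p: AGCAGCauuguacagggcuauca
miR-16-5p: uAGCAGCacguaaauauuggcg
miR-15a-5p: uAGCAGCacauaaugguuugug
miR-322-5p: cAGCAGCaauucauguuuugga
Because of the offset by 1 base, bases 2 to 8 of these arms differ from those of miR-107-3p. Of 9 measured genes of the miR-15/16 list 7 were detected, and Mir322 (40955.5 ± 1501 CPM) and Mir15a (3031 ± 244 CPM) stood above Mir107. The lowest of the list, Mir497b, had 0 reads in both libraries. It is not among the 12 genes with these letters at base 2. Mir497, which is among them, had no row under that symbol. Mir16-1 and Mir16-2 share miR-16-5p, so their counts are not the level of that arm. In the test between libraries 3 of 7 passed as higher and 3 as lower, with a median log2 ratio of 0.02, equal to that of all genes, of which 15.8% passed as higher and 17.8% as lower. With library totals 4 passed as higher and 1 as lower, against 33.4% and 9.01% of all genes.

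A list of microRNAs in introns of paralogous hosts, as Mir107 and both copies of Mir103 are, had 12 measured genes, 11 of them detected. Mir26b, in a Ctdsp gene that encodes a phosphatase, was the highest and the only 1 above Mir107. The lowest was Mir211, of a Trpm channel gene, at 0.867 ± 0.162 CPM. Mir26a-1 and Mir26a-2 of this list share miR-26a-5p, so their counts are not the level of that arm. Other genes of the list may share arms too, so this order is uncertain as an order of microRNA levels. In the exact binomial test none of the 12 passed as higher and 2 as lower, Mir26b at a log2 ratio of -0.19 and Mir204 at -0.16. Over all genes 15.8% passed as higher and 17.8% as lower. The median log2 ratio of the list was -0.03. With library totals 3 passed as higher and 1 as lower, against 33.4% and 9.01%.

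MicroRNAs linked to lipid and insulin metabolism had 10 measured genes, all detected. Mir27b, at 1875 ± 222 CPM, was the only 1 above Mir107, and Mir802 was the lowest at 9.71 ± 0.162 CPM. Of the 10, 2 passed as higher in replicate 2 in the exact binomial test, Mir27a at a log2 ratio of 0.36 and Mir27b at 0.10. As lower 2 passed, Mir375, abundant in endocrine cells, at -0.84 and the liver microRNA Mir122 at -0.44. Over all genes 15.8% passed as higher and 17.8% as lower. With library totals 5 of the 10 passed as higher and 2 as lower, against 33.4% and 9.01%, and the median log2 ratio under TMM was 0.04.

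The genes nearest in level were found by distance in log2(CPM + 1) over the 2 libraries. For Mir107 the nearest was Mir16-1, at 1227 and 1268 CPM, which shares miR-16-5p with Mir16-2, at a distance of 0.07. Then came Mir467d and Mir28a, both at 0.10. For Mir103-2 they were Mir138-2 (0.11), Mir673 (0.16) and Mir190a (0.23), and for Mir103-1 they were Mir194-1 (0.18), Mir5618 (0.23) and Mir219a-2 (0.26). Each of these 9 genes differed in mean level from the named gene by less than that gene's SD between libraries. Within libraries, Mir467d was above Mir107 in both, at 1304 and 1342 CPM, and Mir190a was above Mir103-2 in both, at 33.3 and 46.9 CPM. Mir194-1, at 13 and 31 reads, had the same count as Mir103-1 in replicate 1. Shared arms of the neighbours other than Mir16-1 are not given here, so their counts may carry the limit on copies too.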

How the data were processed

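The authors deposited raw read counts per microRNA gene for each of the 2 libraries, on mm10 with annotation M4, per the text files deposited with them. The sources used here name no aligner, counting program or trimming. Of the 3 columns of counts, the first equals the sum of the others in all 1973 rows. The second, taken as the gene's strand, was used, and the third held 2.14% and 2.24% of these reads. Rows naming no gene (55.2% and 51.5% of reads) were left out of library sizes. Symbols and hosts came from GENCODE M21 (GRCm38) for 1894 rows, and the other 79 held 3 reads. Ratios between libraries used edgeR 4.0.16 TMM factors of 0.952 and 1.05, because a quasi-likelihood fit has no residual degrees of freedom with 1 library a side. Across all 455 genes with 10 reads or more, p-values were adjusted by Benjamini-Hochberg. The script was tested on simulated data. DESeq2 1.42.0 size factors were an alternative. Intervals came from scipy 1.17.1. Members and lists were chosen with earlier results of these data known. The genes named were the members, the 3 nearest in level of each, the highest and lowest of each list, any gene sharing a seed or 18 bases with a member (none was found) and the families with the largest and smallest ratio, and others were named after their values were seen.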

Additional observations from a re-analysis of the deposited data

How the results depend on the processing

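The 4 ratios among Mir107, Mir103-1 and Mir103-2 kept their sign, and moved by less than 1 SD, with log2(CPM + 1). Reads of either strand leave them as they are, since these genes have no opposite-strand read. With 2 libraries, leaving 1 out returns the other's value, from 8.04 to 8.96 for Mir107 over Mir103-1. The share of the 3 genes fell from 0.131% to 0.0838% when reads mapping to several places joined the total, and to 0.0614% of all reads of the table, by construction of the larger total. Rank 4 of Mir107 over its copies among the 13 families became 5 with medians within families. With 1 unique gene and 2 copies its own ratio is the same by mean or median, so the rank moved through the ratios of other families. Of 455 genes 153 passed between libraries, 47.1% of them higher in replicate 2. With library totals 193 passed, 78.8% of them higher, and the ratio of Mir107 turned from -0.02 to 0.13. With DESeq2 size factors 149 passed (42.3% higher), and Mir107 stood at -0.03. With the BCV set to 0.2, edgeR's exact test called 3 genes, since it adds spread between pools, and 18 at an unadjusted p under 0.05 against 182 in the exact binomial test. None of the 3 Pank-hosted genes was called (adjusted p = 1 for each). No paired analysis was possible because there is 1 group. Leaving out a library was not run for the ratio between libraries, which needs both. Depth limits Mir103-1, whose 13 and 36 reads give an interval from -0.05 to 1.94 for its log2 ratio between libraries.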

Other observations

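Identical arms were also counted over the whole table. Of the genes with a RefSeq sequence and a row, 87 have an arm identical to that of another gene, and 49 of them (56.3%) were detected, at a median of 42.6 CPM. Of the 829 with no such arm, 303 (36.6%) were detected, at a median of 85.8 CPM. A gene whose shared arm is missing from the RefSeq table would be counted among the 829. Mir103-1 at 3.75 CPM and Mir103-2 at 36.0 CPM lie below the first median, and Mir107 at 1275 CPM lies above the second. These are descriptions of these 2 libraries with no test.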
